A study of Mus musculus with 2 samples.

Results

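Array signals of 5 genes, grouped as vascular excitability channels and cGMP kinase, are described here, and no excitation was measured. The genes are the L-type calcium channel gene Cacna1c, the potassium channel genes Kcnma1 and Kcnj2, the anoctamin gene Ano3 and the cGMP-dependent kinase gene Prkg2. The members are all probe sets of the deposited table whose platform annotation names only 1 of these genes. A probe set is a group of short probes on the array summarised into 1 value. Each gene had 1 such probe set, so 5 of the 11868 non-control probe sets and 5 of 5928 named genes are members. The members were chosen by their intensities on these same 2 arrays and by what they are known to do, so their ratios below are a description and no test of them was made.

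The study compared 2 mouse mesoangioblast clones, named D16 and D351, by total RNA on the C array of the murine U74 set, with 1 array for each. Both clones came from C57BL6 embryos of embryonic day 9.5, from explants of the dorsal aorta grown for 5 days, plated at limiting dilution on Mitomycin C-treated embryonic fibroblasts and then expanded on gelatin. No treatment or genetic change is named for either clone, and each group is a single clone on a single array. By its title the series compares the clones, and the labels name smooth muscle differentiation as a subject. Of genes that define a mesoangioblast or a smooth muscle cell, few are on this array. The VEGF receptor gene Kdr read 1.6 in D16 and 9.5 in D351, and smooth muscle actin, Acta2, 4.7 and 15.4. Both Kdr values lie inside the range of the negative controls given below, so the labelled cell type could not be checked well on this array.

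In a smooth muscle cell, depolarisation opens L-type calcium channels, and the calcium that enters drives contraction through calmodulin and myosin light chain kinase. Potassium channels work against this. BK channels open on calcium and voltage, and inward rectifiers hold the resting potential near the potassium equilibrium. Calcium-activated chloride channels of the anoctamin family depolarise the cell. Nitric oxide and natriuretic peptides raise cGMP, whose kinases relax the vessel. The kinase of the type I gene, Prkg1, carries out most of this in vascular muscle, while the type II kinase of Prkg2 is bound to membranes and is best known from intestinal epithelium and growth plate cartilage.

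Cacna1c, Ano3 and Kcnj2 are the members more than 2-fold higher in D351, so the 250 bases before their transcript starts are shown to let their upstream sequence be compared. They are from RefSeq on build GRCm38.p6, written 5′ to 3′ on the strand of the gene. RefSeq promoter entries were found for 4 of the 5 members, all but Prkg2. The array does not tell which start a transcript came from, so each listed start is given. Capitals mark matches, on either strand, to the motifs searched: the GC box GGGCGG, the motif CCAAT, the TATA box letters TATAAA, the AP-1 motif TGANTCA and the CArG box, which serum response factor binds.
Cacna1c start 1, chr6:119196410-119196659, minus strand: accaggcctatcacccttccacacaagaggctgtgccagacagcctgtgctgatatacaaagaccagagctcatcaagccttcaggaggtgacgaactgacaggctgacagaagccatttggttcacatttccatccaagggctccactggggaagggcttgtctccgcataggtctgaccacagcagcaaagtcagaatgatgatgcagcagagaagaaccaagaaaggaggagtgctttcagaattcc
Cacna1c start 2, chr6:119108496-119108745, minus strand: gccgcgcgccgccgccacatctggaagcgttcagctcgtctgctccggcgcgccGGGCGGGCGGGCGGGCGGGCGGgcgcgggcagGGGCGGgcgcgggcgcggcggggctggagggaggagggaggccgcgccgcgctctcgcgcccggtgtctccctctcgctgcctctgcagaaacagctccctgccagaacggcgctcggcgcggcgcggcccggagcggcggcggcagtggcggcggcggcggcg
Cacna1c start 3, chr6:118757975-118758224, minus strand: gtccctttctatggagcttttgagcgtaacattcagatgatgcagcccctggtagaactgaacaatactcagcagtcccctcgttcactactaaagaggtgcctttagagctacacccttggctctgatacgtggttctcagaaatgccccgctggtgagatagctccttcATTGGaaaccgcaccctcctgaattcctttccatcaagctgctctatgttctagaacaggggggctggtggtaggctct
Ano3 start 1, chr2:110950245-110950494, minus strand: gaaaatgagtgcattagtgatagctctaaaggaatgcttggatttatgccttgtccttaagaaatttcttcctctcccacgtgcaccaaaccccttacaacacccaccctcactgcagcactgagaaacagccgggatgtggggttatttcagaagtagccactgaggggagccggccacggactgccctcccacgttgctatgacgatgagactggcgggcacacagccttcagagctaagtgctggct
Ano3 start 2, chr2:110840060-110840309, minus strand: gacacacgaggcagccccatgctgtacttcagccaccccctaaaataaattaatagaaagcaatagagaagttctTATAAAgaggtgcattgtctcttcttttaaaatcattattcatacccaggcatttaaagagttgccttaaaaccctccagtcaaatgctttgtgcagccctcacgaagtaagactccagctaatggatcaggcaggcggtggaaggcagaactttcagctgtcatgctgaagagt
Kcnj2 start, chr11:111065914-111066163, plus strand: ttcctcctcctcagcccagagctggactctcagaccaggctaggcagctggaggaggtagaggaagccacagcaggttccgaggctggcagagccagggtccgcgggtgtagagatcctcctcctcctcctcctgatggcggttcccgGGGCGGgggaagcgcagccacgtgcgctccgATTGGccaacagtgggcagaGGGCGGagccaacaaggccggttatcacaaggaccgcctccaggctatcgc

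No motif searched occurred in all of these upstream windows. Start 2 of Cacna1c holds 48 CG dinucleotides and 6 overlapping or separate matches to GGGCGG, against a median of 6 CG dinucleotides over 32817 RefSeq windows of the same length. Start 1 of Cacna1c holds 2 CG dinucleotides and start 3 holds 5, with 1 match to CCAAT. The Ano3 windows hold 7 and 3, and only the second has a match to TATAAA. Kcnj2 lies between them with 14 CG dinucleotides, 2 matches to GGGCGG and 1 to CCAAT, so that it shares GGGCGG with start 2 of Cacna1c and CCAAT with start 3. The window of Kcnma1, not shown, holds 31 CG dinucleotides and 3 matches to GGGCGG. Over all windows, GGGCGG occurred in 32.7%, CCAAT in 33.8% and TATAAA in 12.4%. None of the 7 member windows held a CArG box or TGANTCA, which occurred in 1.47% and 6.75% of all windows. These matches describe letters and were not tied to any measured binding.

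The values are deposited intensities on a linear scale, and the intensity of 1 probe set cannot be set against that of another as an amount of RNA. A floor of 6.4, the median of all non-control values of both arrays, was used. A value at or below it is called dim, and a gene counts as measured if either clone exceeded the floor, which held for 3934 of 5928 genes. Log2 ratios are D351 minus D16 after dim values were raised to the floor, so a ratio with 1 dim side is a lower bound. The 19 negative controls, directed at RNA of bacteria and yeast, read from 0.3 to 11.2 with a median of 1.9. Values up to 11.2 are thus within the range of signals with no target. With 1 array per clone there is no replicate error, and no p-value can be given. As a rough scale, log2 ratios of different probe sets for the same gene had an SD of 0.67 around each other. This came from 409 genes with such probe sets above the floor in both clones, so it does not cover bounds. The probe sets were read on the same arrays, so the SD leaves out variation between cultures and arrays and does not replace replicate error. The hybridization controls, bacterial and phage transcripts added to the sample, were 1.59-fold brighter in D16 (median of 9 probe sets). Scaling both arrays to them moved the median log2 ratio of all measured genes from -0.022 to 0.61, so each direction here is relative to the mean of the array. Fewer cells of a type and less RNA per cell cannot be told apart in such samples.

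All 5 members were measured. Of the 5, 3 passed 2-fold towards D351 and 1 towards D16, where 10.3% and 10.2% of all 3934 measured genes were (20.5% in all). Nothing is read from this count, because the values chose the members. Kcnma1 was the member under 2-fold. Scaled to the hybridization controls, with a floor of 1.8 or 11.2, with a pseudocount in place of the floor, or under a 3-fold rule, the members' counts were again 3 and 1. The shares of all genes towards D351 and D16 were then 28.7% and 3.54% (hybridization controls), 14.6% and 15.6% (floor of 1.8), 9.09% and 8.99% (floor of 11.2), 8.3% and 8.09% (pseudocount) and 4.58% and 3.56% (3-fold). With a floor of 20.7 Kcnj2 no longer passed, leaving 2 and 1, beside 7.91% and 8.33% of all genes. Counted without probe sets that carry a mark of relaxed probe selection, which leaves out Cacna1c and Kcnma1, the members were also 2 and 1, beside 10.5% and 10.1%.

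**Figure D1:**
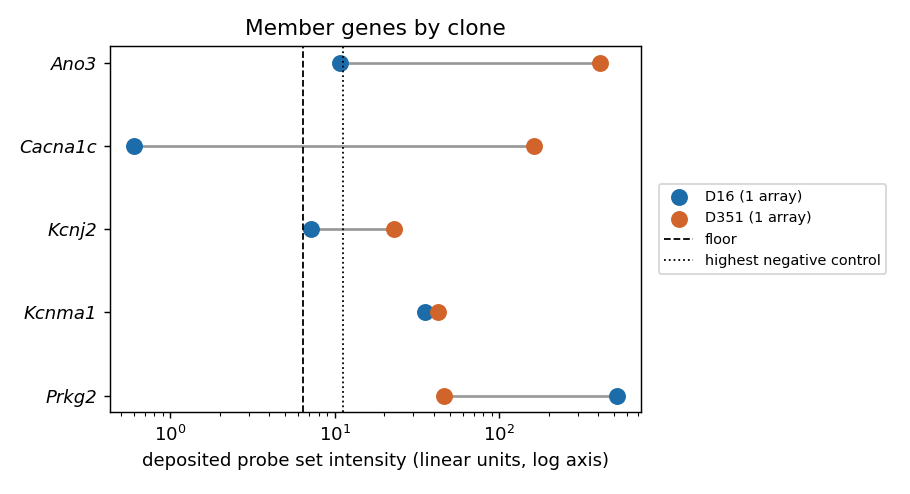
Deposited intensity (linear units on a log axis) of the 5 members in D16 (blue) and D351 (orange), 1 array each. The dashed line is the floor of 6.4 and the dotted line the highest negative control, 11.2. Ano3, Cacna1c and Kcnj2 are brighter in D351 with D16 values left of the dotted line, Kcnma1 is nearly equal, and Prkg2 is brighter in D16 with both values right of it.

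Cacna1c encodes the pore-forming subunit of the L-type calcium channel of smooth and cardiac muscle. Its probe set, 137133_s_at, read 0.6 in D16 and 162.1 in D351. The gene was dim in D16 and clearly above background in D351, at least 25.3-fold higher (log2 ratio at least 4.66). The bound depends on the floor, and with the floor at the highest negative control it was at least 14.5-fold. Of 2419 genes dim in D16, 425 were above the floor in D351 (17.6%), and 7 reached a bound as large as that of Cacna1c. Those 7, listed after their values were seen, were Cacna1c, Hoxb5os, Khdrbs3, Lmod1, Mirg, Sox11 and Tfpi, and Lmod1 encodes a smooth muscle actin-filament protein. The s in the identifier of the probe set means that its probes may match more than 1 transcript. No second Cacna1c probe set was there to check it.

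The calcium channel has auxiliary subunits, which bring the pore to the membrane and tune its gating. Of 26 calcium channel genes listed, 6 were on the array and 4 were measured. Cacnb1, a beta subunit, read 74.4 in D16 and 92.6 in D351, a log2 ratio of 0.32. The other beta subunit on the array, Cacnb4, was dim in both clones by both of its probe sets. Cacna1i, the pore of a T-type channel, read 8.9 and 12.0. Cacng8, whose product mostly serves glutamate receptors, was at least 3.45-fold higher in D16, at 22.1 against 1.9, and Cacng2 was dim in both. Only Cacna1c passed 2-fold towards D351 in this family and only Cacng8 towards D16. With the floor at the highest negative control, Cacng8 no longer passed. Scaled to the hybridization controls, Cacnb1 (log2 ratio 1.01) and Cacna1i (1.12) passed towards D351 too.

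Ano3 had the largest ratio of the members above the floor in both clones, though it cannot be ranked against the bound of Cacna1c, which with a floor of 1.8 was at least 6.49 on the log2 scale. The gene belongs to the anoctamins, some of which are calcium-activated chloride channels, while Ano3 itself is known mainly from neurons, where it raises the activity of the sodium-activated potassium channel Kcnt1. Its probe set, 138490_at, read 10.8 in D16 and 407.9 in D351. The D16 value lay inside the range of the negative controls and the D351 value far outside it. The log2 ratio of 5.24 ranked 5 among 3934 measured genes from the D351 end, with bounds counted at their value under the floor of 6.4. With the floor at 11.2 the gene was at least 36.4-fold higher. Of 709 genes between 6.4 and 11.2 in D16, Ano3 was the only one to reach 407.9 in D351, by a count made after its values were seen. The identifier carries no mark of relaxed probe selection.

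No other anoctamin was measured, so the pattern of Ano3 could not be compared within its family. Of the anoctamins, Ano5 read 0.4 and 1.0 and Ano8 3.1 and 6.2, dim in both clones. No single-gene probe set for Ano1, the main calcium-activated chloride channel of vascular muscle, was matched here. Of 42 anoctamin and chloride channel genes listed, 14 were on the array and 7 measured, with Ano3 alone past 2-fold towards D351. Towards D16 were Lrrc8d, a subunit of the volume-regulated anion channel (323.9 in D16 and 111.6 in D351), and Clcn2, a chloride channel opened by hyperpolarisation (55.5 and 25.8). The second probe set of Lrrc8d, dim in D351, lay the same way at 20.2 and 4.9. Lrrc8c, another subunit of that channel, read 391.9 and 312.2. Without Ano3 the median log2 ratio of the measured genes was -0.37. After scaling to the hybridization controls the list median turned from -0.33 to 0.35, and neither Lrrc8d (-0.84) nor Clcn2 (-0.41) passed 2-fold. Kcnt1 read 4.8 in D16 and 13.2 in D351, at least 2.06-fold higher in D351, but not past 2-fold with the floor at 11.2.

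Kcnj2 encodes the inward rectifier that, in vessels, lets a small rise of external potassium dilate the artery. Its probe set, 134778_at, read 7.2 in D16 and 22.8 in D351, a log2 ratio of 1.66 (3.17-fold). Both values are low, and the D16 value lay within the negative controls. With the floor at 11.2 the ratio became a bound of 2.04-fold, and with a floor of 20.7, the 75th percentile of all values, a bound of 1.10-fold. Among the 709 genes between 6.4 and 11.2 in D16, 88 passed 2-fold towards D351 (12.4%), and 41 had a ratio as large as that of Kcnj2 (5.78%). Of 17 genes of inward rectifiers and their partners listed, 5 were on the array. Kcnj11, the pore of the ATP-sensitive channel, read 16 and 16.3, while Kcnj4, Kcnj9 and Kcnj14 were dim in both clones.

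Kcnma1, the pore of the BK channel, differed little. Its probe set, 168117_i_at, read 35.3 in D16 and 42.5 in D351. Both values stood above every negative control, and the log2 ratio of 0.27 was smaller than the SD of 0.67 between probe sets of a gene. Of 693 genes above the floor in both clones and within 0.5 log2 of its mean intensity, 230 had a ratio no larger in size (33.2%), and 136 passed 2-fold in 1 direction or the other (19.6%). The log2 ratio became 0.96, or 1.95-fold, after scaling to the hybridization controls, still under 2-fold. The i in the identifier stands for a set with fewer probes than the design required.

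The BK channel pore works with beta and gamma subunits. Kcnmb4, a beta subunit found mostly in the nervous system, was dim in both clones by both of its probe sets (1.0 and 3.9 by one, 3.4 and 3.8 by the other). Lrrc26, a gamma subunit that lets the channel open at lower voltage, read 7.2 in D16 and 15.7 in D351, a log2 ratio of 1.12. Lrrc55, another gamma subunit, was dim in both, as was Kcnn2, a small-conductance calcium-activated channel. Of 16 genes listed, 6 were on the array and 3 measured, and Lrrc26 and Kcnt1 passed 2-fold towards D351. With the floor at 11.2 neither did. The smooth muscle beta subunit Kcnmb1 was not matched here.

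Prkg2 was the member with the higher signal in D16. Its probe set, 134660_at, read 515 in D16 and 46.0 in D351, both above every negative control. The log2 ratio was -3.48, so D16 was 11.2-fold higher, and this did not depend on any floor tried up to 20.7. It ranked 15 among 3934 measured genes from the D16 end, counted the same way. Of 84 genes at 515 or more in D16, 18 passed 2-fold towards D16 (21.4%) and 4 had a ratio as large as that of Prkg2. The 4, named after their values were seen, were Gas7, Prkg2, Rbm28 and the transcription factor gene Tfap2a. Scaled to the hybridization controls the log2 ratio was -2.79, or 6.93-fold higher in D16. The identifier carries no mark.

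**Figure D2:**
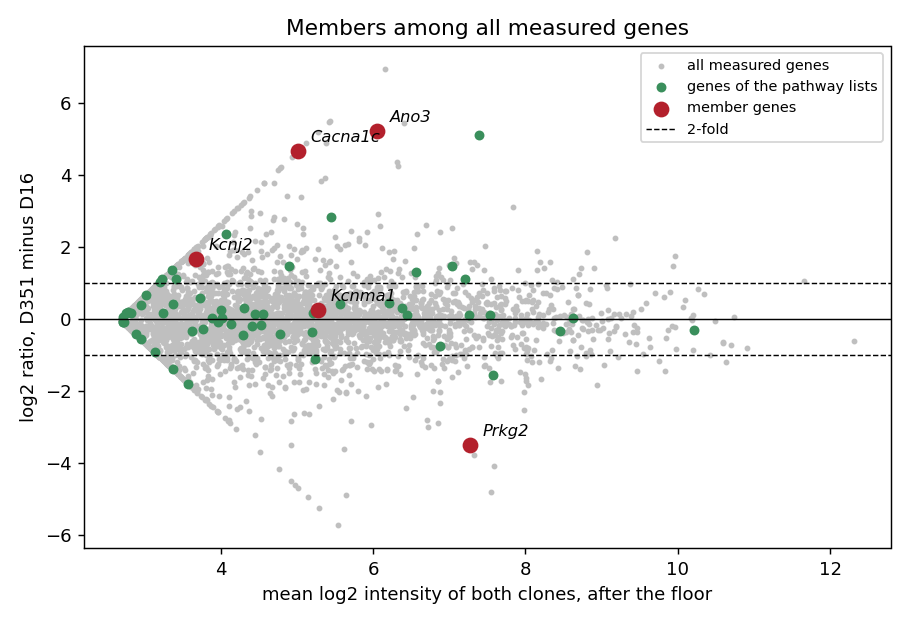
Log2 ratio (D351 minus D16) against mean log2 intensity after the floor, for all 3934 measured genes (grey), the measured genes of the pathway lists (green) and the members (red); dashed lines mark 2-fold. Ano3 and Cacna1c lie at the upper edge at 5.24 and 4.66, the latter on the line formed by genes dim in D16, and Prkg2 lies at the lower edge at -3.48. Scaled to the hybridization controls, the median of all genes would lie at 0.61.

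Other genes of the nitric oxide and cGMP pathway lay mostly near 0 or towards D351. Of 58 listed, 16 were on the array and 12 measured; 4 passed 2-fold towards D351 and Prkg2 alone towards D16, with a median log2 ratio of 0.17 beside -0.022 for all measured genes. Upstream of the kinase, the soluble guanylate cyclase subunit genes Gucy1a1 and Gucy1a2 were dim in both clones, as was Nppc, which encodes C-type natriuretic peptide. The membrane cyclase genes Gucy2d (22.7 in D16 and 19.8 in D351) and Gucy2e (6.8 and 6.5) and the cyclase activator Guca1b (40.9 and 54.4) stayed under 2-fold. Scaled to the hybridization controls, the list median was 0.86, and 5 of 12 passed towards D351 and 1 towards D16. Of all genes, 28.7% and 3.54% then passed. On that scale Guca1b was 2.15-fold higher in D351. Gchfr, whose product restrains synthesis of the nitric oxide synthase cofactor tetrahydrobiopterin, read 28.5 and 989.8, a log2 ratio of 5.12.

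Of the enzymes that break down cGMP, Pde1a and Pde2a were higher in D351. Pde1a, a phosphodiesterase activated by calcium and calmodulin, read 16.2 in D16 and 117.1 in D351, which is 7.23-fold. Pde2a, which cGMP itself stimulates, read 78.7 and 218.1 (2.77-fold). Pde5a, the main cGMP-specific enzyme of vascular muscle, read 8.9 and 10.0, with both values inside the range of the negative controls, and Pde1c was dim in both. Downstream, Ppp1r12a, which targets myosin phosphatase, read 60.2 and 148.6, and Mrvi1, a substrate of the type I kinase on the calcium store, read 35.0 and 39.4. Prkg1 was not matched here. The probe sets of Gchfr, Pde1a and Pde2a carry marks of relaxed probe selection, and without marked probe sets 1 gene of the list, Ppp1r12a, passed 2-fold towards D351.

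In the neighbouring cAMP pathway, 15 of 39 listed genes were on the array and 11 measured, with 3 past 2-fold towards D351, 0 towards D16 and a median of 0.029. Pde7b, a cAMP phosphodiesterase, read 7.4 in D16 and 38.1 in D351. Akap8 (100.3 and 217.5) and Akap13 (2.9 and 16.4), which anchor the cAMP-dependent kinase, passed too. Akap13 passed only as a bound, and not with the floor at the highest negative control, where 2 genes of the list passed towards D351. Prkaca, its catalytic subunit, read 390.4 and 398.2.

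Of 15 genes for calcium stores, entry and removal on the array, 10 were measured and none passed 2-fold, with a median of 0.046. The brightest were Micu2, of the mitochondrial calcium uniporter (1309.5 in D16 and 1067 in D351), and Camk2d, a calmodulin-dependent kinase (152.2 and 91.2). On the scale of the hybridization controls, 2 of 9 passed towards D351, beside 28.7% of all genes. With a floor of 1.8, 4 passed towards D351 and 0 towards D16, beside 14.6% and 15.6% of all genes. The ratios of Plcb1, Plcd4, Slc8a1, Slc8a3 and Trpm7 were lower bounds, so a 2-fold difference in these genes was not excluded. Of 16 voltage-gated and 2-pore potassium channel genes on the array, 8 were measured. Kcnk10, at 5.7 in D16 and 13.8 in D351, was at least 2.16-fold higher in D351. Kcnh1, at 16.7 and 5.5, was at least 2.61-fold higher in D16 (1.88-fold after scaling to the hybridization controls). With the floor at the highest negative control, neither passed 2-fold. Kcnd1 (83.9 and 91.1) was bright and nearly even. So was Kcnc1 (178.4 and 193.6) by its brightest probe set, which carries a mark of relaxed probe selection. Its other, unmarked probe set read 10.2 in D16, within the negative controls, and 17.7 in D351. Scaled to the hybridization controls, Kcnc1 was 1.75-fold and Kcnd1 1.76-fold higher in D351. Of 9 sodium channel genes on the array, 4 were measured and Scn3b, a beta subunit, read 17.7 and 49.7; its other probe set was dim in D16 and read 7.2 in D351.

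Over the 9 pathway lists together, 61 of 102 genes on the array were measured. Of these, 14 passed 2-fold towards D351 and 5 towards D16 (31.1%, beside 20.5% of all genes), and scaled to the hybridization controls the split became 21 and 2 of 63, where 28.7% and 3.54% of all genes passed. Without the members the numbers were 11 and 4 of 56 (26.8%), with a median log2 ratio of 0.12. The lists were drawn up with earlier results in view, so this share is a description.

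**Figure D3:**
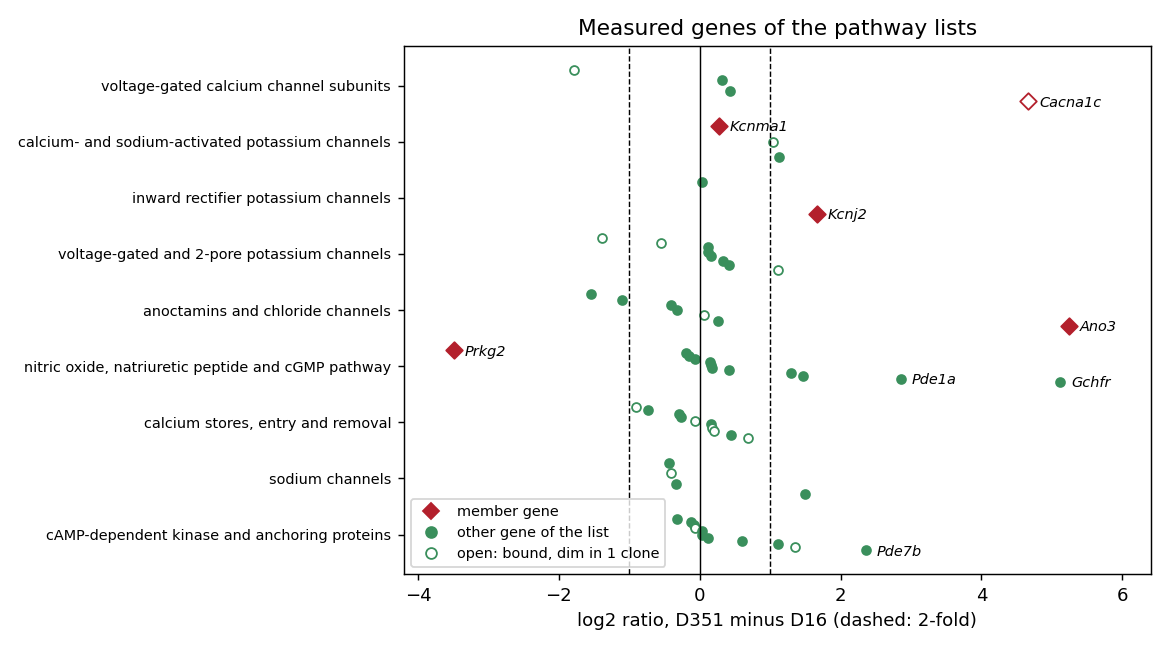
Log2 ratios (D351 minus D16) of the measured genes of each pathway list, with members as red diamonds, other genes as green circles and lower bounds as open symbols; dashed lines mark 2-fold. Ano3, Cacna1c and Prkg2 lie outside the bulk of their lists, while the ratios and bounds of the calcium store list stay within 2-fold. Scaled to the hybridization controls 2 genes of that list would pass, and with a floor of 1.8, 4 would.

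Smooth muscle and fibroblast markers went the same way as the members that were higher in D351, while endothelial and mural cell markers went both ways. Of 16 smooth muscle markers, 5 were on the array and 4 of 4 measured passed 2-fold towards D351, as did 10.3% of all measured genes. The summed intensity of all 7 probe sets of the 5 came to 134.1 for D16 and 1147.2 for D351. In D351 it came mostly through Itga8 (678.3) and Lmod1 (288.2). Acta2 passed only as a bound, and its D351 value of 15.4 was less than 2-fold above the highest negative control, 11.2. Myocd was dim in both. Of 18 fibroblast markers, the cell type of the feeder layer, 6 were on the array and 5 of 5 measured passed towards D351. Their sums over all 9 probe sets were 694.3 and 2438.7, with Col5a2 dim in both. Of the endothelial markers, 5 of 18 were on the array, with sums of 28.6 and 106 over 6 probe sets. They went both ways, with Flt1 at 1.3 in D16 and 87.6 in D351 and Egfl7 at 19.5 and 3.8, and Sox17 and Sox18 were dim in both clones. The 3 mural cell markers summed to 2271.3 and 4698, mostly through Bgn. Bgn (2238.3 in D16 and 4679.7 in D351) and Rgs4 (6.8 and 13.8) passed 2-fold towards D351. The D16 value of Rgs4 lay within the negative controls, and its D351 value was less than 2-fold above their highest, 11.2. Angpt1 was at least 4.09-fold brighter in D16, at 26.2 against 4.5. The part of these cell types in the ratios of Cacna1c, Ano3 and Kcnj2 was not tested.

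The 6 neuronal markers on the array summed, over their 7 probe sets, to 68.4 in D16 and 80.2 in D351, with Elavl4 and Gad2 dim in both. Of the cardiac markers, 4 were on the array and summed to 49.1 and 59.2 over 5 probe sets, with Tnnt2 and Myl7 dim in both. Tbx5 read 10.1 and 28.3, past 2-fold towards D351, and Tbx20 36.6 and 24.3. The 5 skeletal muscle markers summed to 150.9 and 309.4 over 6 probe sets, mostly through Pvalb, which at 98.2 and 277.3 passed 2-fold towards D351. Ckm, the other one measured, lay the other way at 27.8 in D16 and 15.1 in D351, under 2-fold. Mylpf, Tnnt3 and Chrna1 were dim in both. The 4 markers of neural crest and glia summed, over 5 probe sets, to 991.6 in D16 and 42.5 in D351, nearly all of it Tfap2a. Tfap2a, at 981.2 and 35.6, was the only one past 2-fold, towards D16 like Prkg2. Mbp read 8.1 and 4.9, both within the negative controls, and Gfap and S100b were dim in both. The part of this cell type in the Prkg2 ratio was not tested.

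For each member, the 3 genes nearest to it in floored log2 intensity over the 2 arrays were found by Euclidean distance, a likeness over only 2 values. Nearest to Ano3 were Lrrc32 (distance 0.53), Tram1l1 and Cemip. Nearest to Cacna1c were Mirg (0.087), Pclaf and Khdrbs3, all dim in D16. Nearest to Prkg2 were Rbm28 (0.21), Gas7 and Ccnd1. Kcnj2 lay nearest to Itgb1bp1 (0.064), Nwd2 and 4930570G19Rik, and Kcnma1 to Sipa1l3 (0.011), Wnt4 and Dpf2. Ano3 thus had no close neighbour, while Kcnma1 had several.

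**Figure D4:**
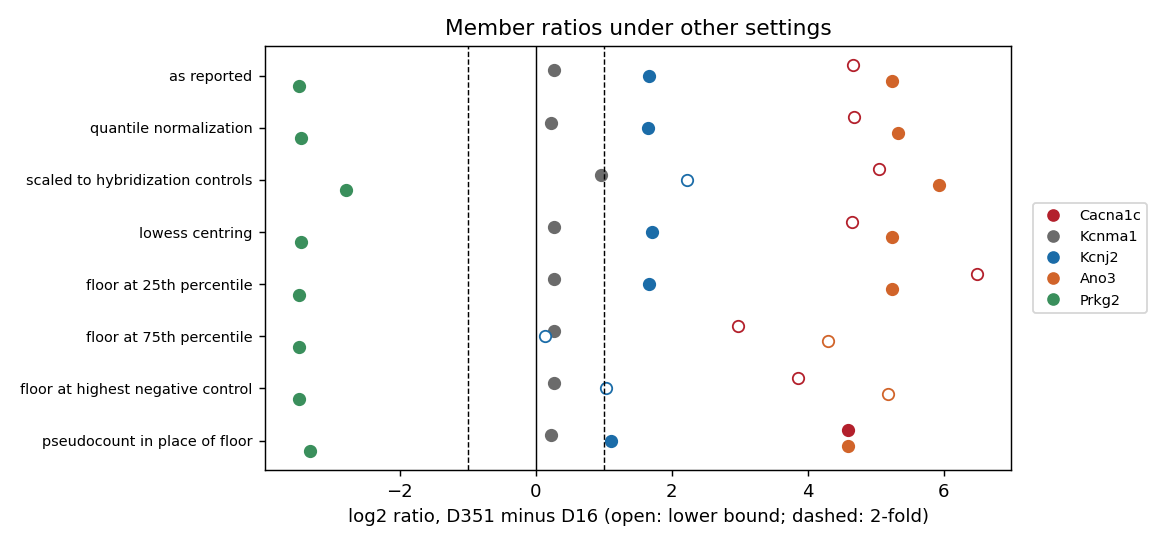
Log2 ratio (D351 minus D16) of the members under the setting used and 7 alternatives; open circles are lower bounds and dashed lines mark 2-fold. Prkg2 stays between -3.48 and -2.79, Ano3 and Cacna1c stay above 2-fold throughout, and Kcnj2 drops to 0.14 with the floor at the 75th percentile.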

How the data were processed

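The deposited table held 1 linear intensity per probe set and array for 11934 probe sets; the software by which the authors made these intensities is not given in the sources used here. The mean without the lowest and highest 2% was 20.0 on both arrays, and the values were used as deposited. The 66 control probe sets were set aside. The platform annotation named 1 gene for 7717 of the rest, several for 150 and none for 4001, and the RefSeq gene table (GRCm38.p6) held 7677 of the 7717. Each gene took the value of its brightest probe set, by mean floored log2. A call is a 2-fold difference, without a p-value, and 1 array per clone limits the precision.

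Every probe set of the members was named. From each list up to 4 genes past 2-fold per direction were named, or the 2 brightest, besides direct partners of the members. Members and lists were chosen with earlier results of these data known. Alternatives were quantile normalization, scaling to the hybridization controls (each array brought to their common geometric mean), lowess centring (span 0.3), 3 other floors, a pseudocount, a 3-fold rule, unmarked probe sets and the mean over probe sets. The procedure was tested on simulated data with changes planted only in bright probe sets and with less noise than the spread between probe sets of a gene. That test says nothing of calls near the floor. The tools were Python 3.11.15 with matplotlib 3.10.9, statsmodels 0.14.6, scipy 1.17.1, pandas 2.3.3 and numpy 2.4.6.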

Additional observations from a re-analysis of the deposited data

How the results depend on the processing

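No paired analysis was possible because each clone had 1 array. The directions of the 5 members held under the 7 settings tried for them, and Prkg2 passed 2-fold in each. Quantile normalization and lowess centring moved no member by more than the SD between probe sets. Scaled to the hybridization controls, the log2 ratio was 0.96 for Kcnma1, 5.93 for Ano3 and -2.79 for Prkg2. There 2 list genes passed towards D16, beside 3.54% of all genes. With a floor of 1.8, the 25th percentile, Cacna1c was at least 6.49. Then 22 and 14 list genes passed towards D351 and D16, beside 14.6% and 15.6% of all genes. As reported they were 14 and 5, beside 10.3% and 10.2%. With a floor of 20.7, the 75th percentile, Cacna1c was at least 2.97, Ano3 at least 4.30 and Kcnj2 at least 0.14. The list genes were then 8 and 3, beside 7.91% and 8.33% of all genes. Measured genes numbered 5209 with the floor of 1.8 and 2340 with that of 20.7, against 3934 as reported. With the floor at 11.2, Cacna1c was at least 3.86 and 3 list genes passed towards D16, beside 8.99% of all genes. With the pseudocount 3 passed as well, beside 8.09%. Under the 3-fold rule the counts were 6 and 2, beside 4.58% and 3.56%. Without marked probe sets 8 passed towards D351, beside 10.5%. Members past 2-fold towards D351 numbered 2 rather than 3 with the floor of 20.7 and without marked probe sets, which leave out Kcnj2 and Cacna1c respectively. For values near background, the floor sets the size of a ratio.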
